A study of Mus musculus with 5 samples.

Results

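The 10 genes described here encode proteins that store iron, move iron or heme, or control these steps: *Slc40a1*, *Fth1*, *Ftl1*, *Tfrc*, *Slc11a1*, *Slc11a2*, *Slc48a1*, *Aco1*, *Ireb2*, and *Ncoa4*. They were listed by symbol for their role in iron storage, uptake, and export, with earlier results of these data known, and all 10 were among the 12576 genes tested, of 17058 with a count in at least 1 library. RNA-Seq was performed on bone marrow–derived macrophages (BMDMs) of Balb/c mice that had shared a culture for 48 hours with 4T1 cells, a mouse mammary carcinoma line, across a porous membrane. In 2 libraries the 4T1 cells were WT, and in 3 they were *Adam17*-/- (knock-out 2.8 in all 3 libraries, and the loss of ADAM17 and any other trait of these knock-out cells cannot be told apart). The macrophages themselves were not edited in either group, so *Adam17* counts in these libraries are those of the macrophages and check no label. The comparison asks how macrophage transcripts differ when the cancer cells lack ADAM17, a protease that releases growth factors and cytokines from the cell surface. The labels do not say whether replicates came from separate mice or cultures, so p-values measure only the spread between these samples, which may be technical.

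Macrophages recycle the iron of old red blood cells. Heme taken up by phagocytosis is opened by heme oxygenase, the freed iron is stored in ferritin or leaves through ferroportin (*Slc40a1*), and transferrin-bound iron enters through the transferrin receptor (*Tfrc*). When cytosolic iron is low, the iron regulatory proteins IRP1 (*Aco1*) and IRP2 (*Ireb2*) bind a stem-loop in certain mRNAs, the iron-responsive element. An element in the 5′ UTR then blocks translation, whereas elements in the 3′ UTR protect the mRNA from decay. For genes with a 5′ element, an mRNA level therefore does not give the protein level.

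These elements are printed because they divide the members into mRNAs with a match to the iron-responsive element and mRNAs in which no match was found. Transcripts of GENCODE M21 (build GRCm38) were searched on their sense strand, and only matches in a UTR were kept. The pattern was a C, 5 bases, the loop CAGTGN, and 5 bases that pair back to the first 5. G-T pairs counted as paired, and whether the C is unpaired was not checked. The 6-base loop is in capitals below, and each line runs 5′ to 3′.
Fth1, 5′ UTR in exon 1, chr19:9982733-9982759, plus strand: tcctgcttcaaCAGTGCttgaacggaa
Ftl1, 5′ UTR in exon 1, chr7:45459780-45459806, minus strand: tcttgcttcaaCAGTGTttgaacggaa
Slc40a1, 5′ UTR in exon 1, chr1:45925466-45925492, minus strand: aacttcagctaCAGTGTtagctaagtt
Tfrc, 3′ UTR in exon 19, chr16:32631220-32631246, plus strand: attatcggaagCAGTGCcttccataat
Tfrc, 3′ UTR in exon 19, chr16:32631599-32631625, plus strand: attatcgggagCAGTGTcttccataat
Tfrc, 3′ UTR in exon 19, chr16:32631664-32631690, plus strand: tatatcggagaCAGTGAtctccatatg
Tfrc, 3′ UTR in exon 19, chr16:32631711-32631737, plus strand: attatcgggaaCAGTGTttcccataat
Slc11a2 transcript NM_001146161, 3′ UTR in exon 16, chr15:100395153-100395180, minus strand: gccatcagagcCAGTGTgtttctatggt

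The *Slc11a2* element has 1 unpaired base in its 3′ arm and was found only when the search allowed for it. *Slc11a1*, *Slc48a1*, *Aco1*, *Ireb2*, *Ncoa4*, and the other *Slc11a2* transcript (NM_008732) held no match in a UTR in either search. This says only that the pattern is not in the UTRs of these transcripts. Over all genes with a protein-coding transcript, 160 of 21901 (0.731%) held a UTR match with full pairing, and 439 (2%) held one when 1 unpaired base was allowed. A match is a description and not a measured binding site.

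The libraries held 14658694 to 20788373 counts, so that 3 counts in a library, taken as the floor, correspond to 0.157 to 0.197 CPM (counts relative to the library total after TMM normalization). The WT replicates differed more from each other (chi-square per degree of freedom 25.7) than the *Adam17*-/- replicates did (5.22 to 6.32). Of the macrophage markers, 6 of 8 tested fell (16.8% of all tested genes did so) and 0 rose by edgeR's quasi-likelihood test (0 also by DESeq2 and at an unadjusted p under 0.05), and they summed to 27740 and 28400 CPM in the WT libraries, against 18060 to 19950 CPM in the *Adam17*-/- libraries. Of the neutrophil and precursor markers, 9 of 10 rose (14.9% of all tested genes did so), and these markers summed to 333.6 and 406.1 CPM against 1158 to 1332 CPM. The marker lists of dendritic (10.55 and 15.96 CPM against 19.6 to 26.9 CPM), erythroid (5.41 and 6.18 CPM against 10.3 to 10.5 CPM), and epithelial cells (10.99 and 12.56 CPM against 11.9 to 13.8 CPM) were lower in sum than either of these lists in every library. Among dendritic markers, 2 of 5 tested rose by edgeR, each past a log2 fold change of 1, and 0 fell (0 also by DESeq2). Proliferation markers went in both directions, since 3 of 8 tested rose and 2 fell (14.9% and 16.8% of all tested genes did so). Of the erythroid markers, 2 of 3 tested rose, the globin *Hba-a1* (32.84 and 11.18 counts against 54.39, 52.02, and 64.39) and *Ermap* (adjusted p = 0.0649 by DESeq2), whereas *Hbb-bs* and *Hbb-bt* had no count. Of the epithelial markers, *Cdh1* had 173 to 242 counts per library and was not called, and none of the others was tested. The part of these marker differences in the results below was not tested. In bulk RNA, fewer cells of a type and less RNA per cell cannot be told apart.

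Of the 10 members, 2 rose and 2 fell in the *Adam17*-/- cocultures at an adjusted p of 0.05 or less. *Slc40a1*, the iron exporter, and *Ireb2*, which encodes IRP2, rose; *Aco1*, which encodes IRP1, and *Slc11a1*, the phagosomal metal transporter, fell. These 4 of 10 members (40%) stand against 31.7% of all tested genes that passed the same test, 14.9% higher and 16.8% lower. With a change of at least 1 on the log2 scale also required, 0 members passed by edgeR, 0 by DESeq2, and 0 at an unadjusted p under 0.05, against 4.22% of all tested genes. At an unadjusted p under 0.05 in edgeR, with no limit on size, 7 members passed, against 43.5% of all tested genes. The median log2 fold change of the members was -0.21, against 0.009 over all tested genes, and the median absolute log2 fold change was 0.28, against 0.27. All 3 *Adam17*-/- libraries lay above both WT libraries for 4 members (28.4% of all tested genes did so) and below both for 4 members (29.7% did so), on the CPM scale. On the FPKM scale, which has no TMM factor, 4 members lay above (41.5% of all tested genes) and 2 below (18.1%), since *Ftl1* and *Slc48a1* then overlapped between the groups. With 2 libraries against 3, the smallest p-value of an exact permutation test of 1 gene is 0.1, and the calls rest on the spread that edgeR estimates over all genes. The balance of calls depends on scaling: 46.9% of all calls were higher with TMM factors, 73.7% with library size alone (median log2 fold change of all genes 0.16), and 74.2% and 73.9% with limma on FPKM (medians 0.15 and 0.11).

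**Figure D1:**
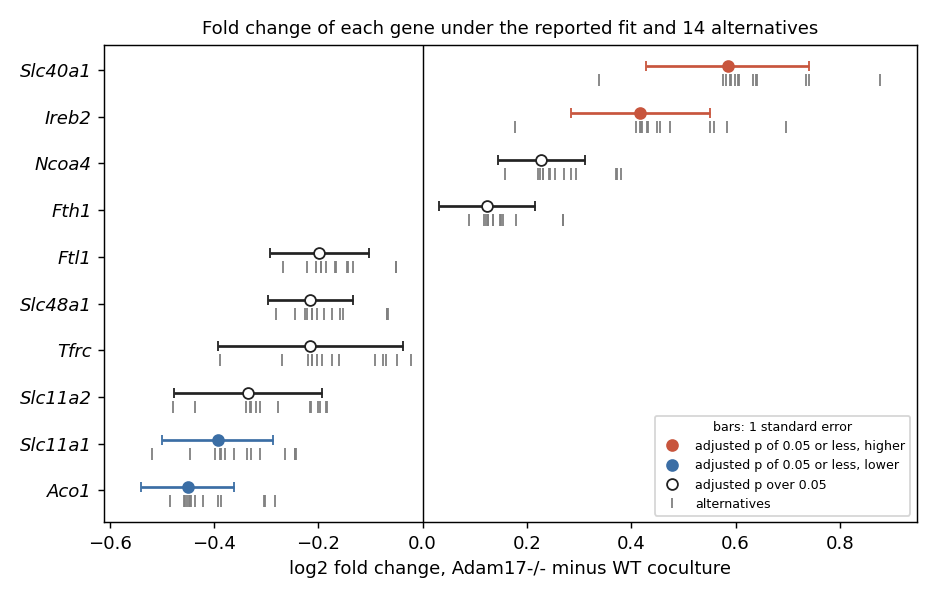
Log2 fold change (*Adam17*-/- minus WT coculture) of each of the 10 genes, with circles for the reported fit, bars for 1 standard error, and grey ticks for 14 alternative settings. Every tick lies on the same side of 0 as its circle, and the circles run from -0.45 for *Aco1* to 0.58 for *Slc40a1*.

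The levels of the members spanned more than 3 orders of magnitude on the FPKM scale, which corrects for transcript length. *Fth1* ranked 3rd and *Ftl1* 5th of the 17058 genes, at 7448 ± 20.2 and 3837 ± 134 FPKM in the WT libraries (mean ± SD, n = 2). *Slc11a1* (156.9 ± 14.7 FPKM) and *Slc48a1* (119.1 ± 3.72 FPKM) followed, then *Ncoa4* at 30.3 ± 2.91 FPKM. *Slc11a2* (14.8 ± 1.48 FPKM), *Ireb2* (13.7 ± 3.85 FPKM), and *Aco1* (13.7 ± 0.474 FPKM) could not be ordered within their spread in the WT libraries. *Tfrc* (5.47 ± 0.424 FPKM) lay above *Slc40a1* (3.16 ± 0.728 FPKM), the lowest of the 10. In the *Adam17*-/- libraries (n = 3), the mean of *Ireb2* was 20.2 ± 0.559 FPKM, above *Slc11a2* (12.9 ± 2.15 FPKM) and *Aco1* (11.1 ± 0.718 FPKM), and *Slc40a1* (5.29 ± 0.240 FPKM) and *Tfrc* (5.23 ± 1.32 FPKM) overlapped.

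**Figure D2:**
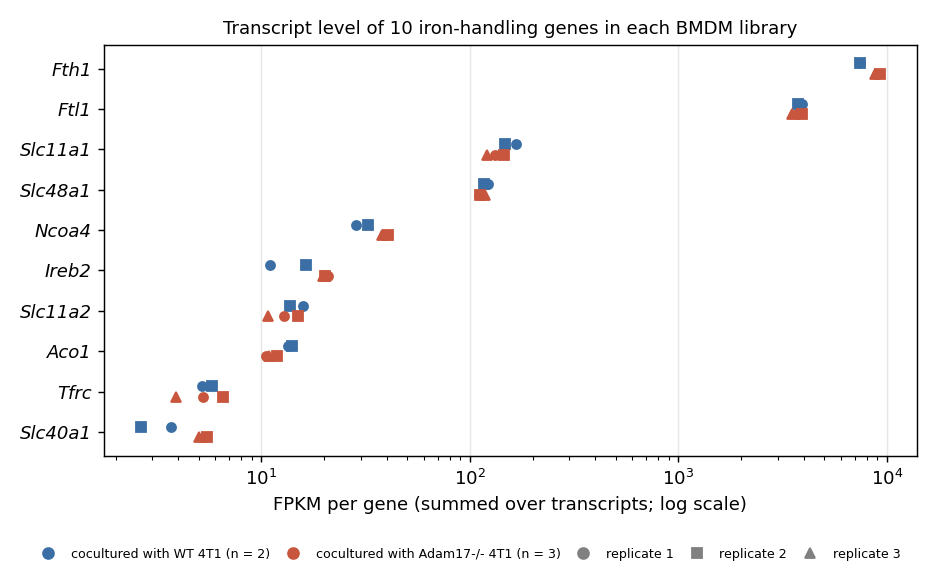
FPKM of each gene on a log axis, with 1 point per library, blue for WT and red for *Adam17*-/- cocultures. The ferritin genes stand apart at the top, with means of 3708 FPKM or more in either group, and *Slc40a1* and *Tfrc* lie lowest, with means between 3.16 and 5.47 FPKM.

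Ferritin is a shell of heavy and light chains, in which the heavy chain oxidizes iron for storage and the light chain helps form the mineral core. *Fth1* (Entrez Gene 14319, chromosome 19, 9980600 to 9985111, build GRCm38 here and for all genes), the heavy chain, was at 7072 and 6783 CPM in the WT libraries and at 7460, 7753, and 7414 CPM in the *Adam17*-/- libraries. The *Adam17*-/- values lay above the WT values by a small margin, and the difference did not pass the test (log2 fold change 0.12, standard error 0.0920, edgeR adjusted p = 0.332). It passed under 1 of 14 alternatives, with library size alone in place of TMM (0.27, adjusted p = 0.0318), where all genes shifted by a median of 0.16. *Ftl1* (Entrez Gene 14325, chromosome 7, 45457944 to 45459886), the light chain, was at 3929 and 3573 CPM in the WT libraries and at 3228, 3461, and 3118 CPM in the *Adam17*-/- libraries. On this scale the *Adam17*-/- values lay below the WT values, and this difference did not pass either (log2 fold change -0.20, standard error 0.0947, adjusted p = 0.137), except without WT replicate 2 (-0.27, adjusted p = 0.0442). With library size alone its log2 fold change was -0.05 (adjusted p = 0.666), and its FPKM values overlapped (3932 and 3742 against 3688, 3919, and 3515).

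The ratio of heavy to light chain compares both genes within a library, so that library scaling cancels. Fth1 FPKM divided by Ftl1 FPKM was 1.89 and 1.99 in the WT libraries, against 2.43, 2.35, and 2.50 in the *Adam17*-/- libraries. All 3 *Adam17*-/- ratios exceeded both WT ratios, with means of 2.43 ± 0.0724 (SD, n = 3) and 1.94 ± 0.0732 (SD, n = 2). The log2 difference of 0.32 is several times the spread within a group, and the exact permutation test gave its smallest possible p of 0.1, or 0.2 after adjustment over the 2 ratios tested. A ratio of this kind shows unequal change and not which chain moved. Total ferritin (the FPKM sum of both genes) divided by *Tfrc* FPKM was 2198 and 1942 in the WT libraries, against 2413, 2009, and 3145 in the *Adam17*-/- libraries. These groups overlapped (log2 difference 0.26, exact permutation p = 0.4, also 0.4 after adjustment). The log2 difference was 0.09 without *Adam17*-/- replicate 3, 0.42 without *Adam17*-/- replicate 2, and 0.17 without WT replicate 2.

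*Ncoa4* (Entrez Gene 27057, chromosome 14, 32159879 to 32179855) encodes the receptor that carries ferritin to the lysosome, where its iron is released. It was at 120.7 and 132.6 CPM in the WT libraries and at 149.1, 152.8, and 143.4 CPM in the *Adam17*-/- libraries. All 3 *Adam17*-/- values lay above the WT values, but the difference did not pass the test (log2 fold change 0.23, standard error 0.0830, edgeR adjusted p = 0.0612). It passed in 6 of 14 alternatives, with log2 fold changes of 0.24 to 0.38. The largest of these were 0.37 with library size alone, and 0.38 and 0.37 with limma on log2(FPKM + 0.1) and log2(FPKM + 1). In these settings all genes shifted by medians of 0.16, 0.15, and 0.11. The counts of *Ncoa4* were split between 2 main transcripts. The share of NM_019744 was 62.1% and 43.5% in the WT libraries, against 68.7%, 67.9%, and 64.6% in the *Adam17*-/- libraries. The WT replicates lay farther apart from each other than WT replicate 1 did from any *Adam17*-/- library. The difference of 14.3 percentage points was 4.97 without WT replicate 2 and 23.6 without WT replicate 1. The exact permutation p of this share was 0.1, the smallest possible, and 0.1 after adjustment over the 4 transcripts tested.

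*Slc40a1* (Entrez Gene 53945, chromosome 1, 45908070 to 45926532) encodes ferroportin, the only known exporter of cellular iron, whose protein hepcidin removes from the surface. It was at 13.3 and 9.15 CPM (254 and 169 counts) in the WT libraries and at 16.9, 17.6, and 16.1 CPM (309, 267, and 304 counts) in the *Adam17*-/- libraries. All *Adam17*-/- values were above the WT values, and the WT replicates differed from each other by more than WT replicate 1 did from the nearest *Adam17*-/- library. The means were 11.2 ± 2.93 CPM (SD, n = 2) and 16.9 ± 0.735 CPM (SD, n = 3), which gave a fold of 1.5, or 0.58 on the log2 scale (standard error 0.156, edgeR adjusted p = 0.0199). Of all genes tested, 18.2% had a larger absolute log2 fold change. Without WT replicate 2 the log2 fold change was 0.34 (adjusted p = 0.0430), and without WT replicate 1 it was 0.88 (adjusted p = 0.0004995). Without *Adam17*-/- replicate 1 or 2 it was 0.60 and 0.58, and the adjusted p rose to 0.0552 and 0.0559. The genes whose log2 CPM followed *Slc40a1* most closely were *Acrbp* (Pearson r = 0.997), *Tomm40l* (r = 0.997), and *Rgl2* (r = 0.996), over 5 libraries and 8486 genes at 10 CPM or more. All 5 points share the group difference and the gap between the WT replicates, and 30 genes had an r over 0.99.

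*Tfrc* (Entrez Gene 22042, chromosome 16, 32608896 to 32632794), which carries the 4 elements of the 3′ UTR printed above, was at 27.3 and 29.2 CPM in the WT libraries and at 24.3, 30.7, and 18.3 CPM in the *Adam17*-/- libraries. The groups overlapped, and the widest spread lay among the *Adam17*-/- libraries. No difference was called (log2 fold change -0.22, standard error 0.177, edgeR adjusted p = 0.376), and none was under any of the 14 alternatives, where the log2 fold change ran from -0.39 without *Adam17*-/- replicate 2 to -0.02 without *Adam17*-/- replicate 3. *Tfrc* was the one member whose test came out the same in every alternative without being called.

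*Slc11a1* (Entrez Gene 18173, chromosome 1, 74375014 to 74386057) encodes NRAMP1, which moves iron and manganese out of the phagosome of macrophages. Balb/c is a strain known to carry a nonfunctional form of this protein, so its transcript level does not stand for transport. It was at 407.3 and 340.9 CPM in the WT libraries and at 281.0, 313.3, and 260.6 CPM in the *Adam17*-/- libraries. All *Adam17*-/- values lay below both WT values. The means were 374.1 ± 47.0 CPM (SD, n = 2) and 285.0 ± 26.5 CPM (SD, n = 3), a fold of 0.762, or -0.39 on the log2 scale (standard error 0.107, edgeR adjusted p = 0.0210). This call was lost under 6 of 14 alternatives. With library size alone the log2 fold change was -0.24 (adjusted p = 0.0884), and with limma on log2(FPKM + 0.1) and log2(FPKM + 1) it was -0.24 in both (adjusted p = 0.0981 and 0.0994). Without *Adam17*-/- replicate 1 or 3 it was -0.36 and -0.31 (adjusted p = 0.0899 and 0.0908).

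*Slc11a2* (Entrez Gene 18174, chromosome 15, 100387898 to 100424209) encodes DMT1, the transporter that passes ferrous iron from the endosome to the cytosol. It was at 55.5 and 45.2 CPM in the WT libraries and at 40.0, 46.7, and 33.4 CPM in the *Adam17*-/- libraries. The groups overlapped, since *Adam17*-/- replicate 2 lay above WT replicate 2. The log2 fold change of -0.33 did not pass the test (standard error 0.142, edgeR adjusted p = 0.0999), except without WT replicate 2 (adjusted p = 0.0128). The transcript with the 3′ element, NM_001146161, held 23.8% (95% Wilson interval 21.3 to 26.4) and 18.2% (15.7 to 21.0) of the *Slc11a2* counts in the WT libraries. In the *Adam17*-/- libraries it held 29.2% (26.0 to 32.6), 24.9% (21.9 to 28.2), and 24.9% (21.7 to 28.4). The intervals cover counting error only. The share was higher in all 3 *Adam17*-/- libraries, with means of 26.4% ± 2.44 (SD, n = 3) and 21.0% ± 3.87 (SD, n = 2), but the interval of WT replicate 1 overlapped those of all 3 *Adam17*-/- libraries. The difference of 5.36 percentage points had an exact permutation p of 0.1, the smallest possible, and 0.1 after adjustment over 4 transcripts. It was 2.67 points without WT replicate 2 and 8.07 without WT replicate 1. The remaining *Slc11a2* counts were assigned to NM_008732, which lacks the element.

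**Figure D3:**
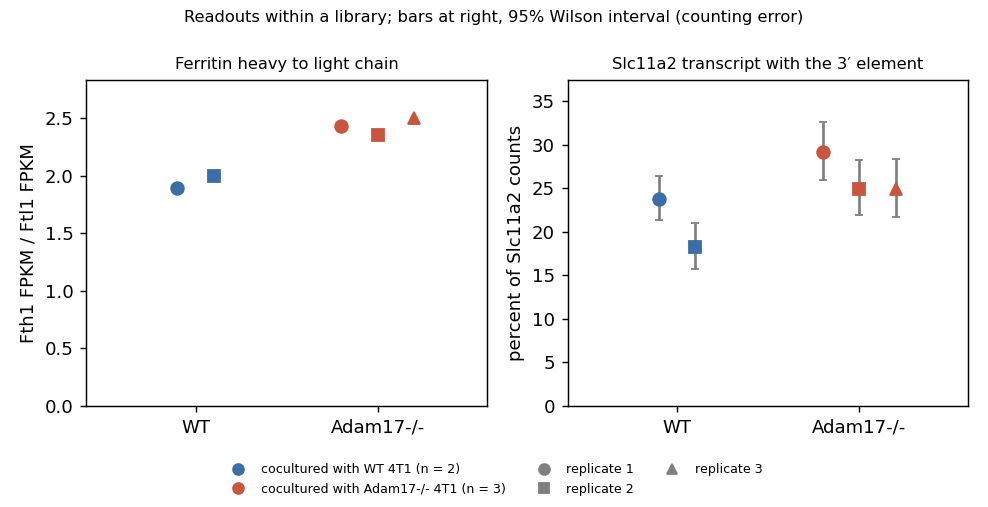
Readouts within a library that library scaling cannot move: the ratio of *Fth1* to *Ftl1* FPKM (left) and the percent of *Slc11a2* counts assigned to the transcript with the 3′ element (right, with 95% Wilson intervals), 1 point per library. The ratio was 1.89 and 1.99 in WT and 2.35 to 2.50 in *Adam17*-/- cocultures, whereas the intervals of the share overlap between WT replicate 1 and the *Adam17*-/- libraries.

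*Slc48a1* (Entrez Gene 67739, chromosome 15, 97784365 to 97792692) encodes HRG1, which moves heme from the phagolysosome to the cytosol for breakdown. It was at 326.0 and 298.1 CPM in the WT libraries and at 260.8, 265.7, and 279.8 CPM in the *Adam17*-/- libraries. All *Adam17*-/- values lay below the WT values, and the difference did not pass the test (log2 fold change -0.22, standard error 0.0817, edgeR adjusted p = 0.0702), except without WT replicate 2 (adjusted p = 0.00895). With library size alone the log2 fold change was -0.07 (adjusted p = 0.510), and the FPKM values overlapped. The gene overlaps *Hdac7* by 32 bases, and the protocol in the labels does not mark strand, so reads of this stretch cannot be assigned.

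The transcripts of the iron regulatory proteins moved in opposite directions. *Aco1* (Entrez Gene 11428, chromosome 4, 40143265 to 40199009) encodes IRP1, which acts as cytosolic aconitase when it holds an iron-sulfur cluster and binds the elements when it does not. It was at 61.9 and 62.1 CPM in the WT libraries and at 42.6, 48.8, and 44.9 CPM in the *Adam17*-/- libraries. The WT values were almost equal, and all *Adam17*-/- values lay below them. The means were 62.0 ± 0.153 CPM (SD, n = 2) and 45.4 ± 3.13 CPM (SD, n = 3), a fold of 0.732, or -0.45 on the log2 scale (standard error 0.0892, edgeR adjusted p = 0.00563). *Aco1* was the one member called under all 14 alternatives, with adjusted p from 0.001026 to 0.0485 and log2 fold changes from -0.48 to -0.28. The smallest change, -0.28, came with limma on log2(FPKM + 1), in which all genes shifted by a median of 0.11.

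*Ireb2* (Entrez Gene 64602, chromosome 9, 54862658 to 54912534) encodes IRP2, which is removed by degradation when iron is plentiful and so is controlled mainly as a protein. It was at 68.7 and 98.3 CPM in the WT libraries and at 113.9, 111.4, and 109.1 CPM in the *Adam17*-/- libraries. The *Adam17*-/- values were tightly grouped above the WT values, and the WT replicates differed from each other by more than WT replicate 2 did from the *Adam17*-/- libraries. The means were 83.5 ± 20.9 CPM (SD, n = 2) and 111.5 ± 2.44 CPM (SD, n = 3), a fold of 1.34, or 0.42 on the log2 scale (standard error 0.133, edgeR adjusted p = 0.0390). The call was lost without WT replicate 1 and without each *Adam17*-/- library: without WT replicate 1 the log2 fold change was 0.18 (adjusted p = 0.0811), without WT replicate 2 it was 0.70 (adjusted p = 3.051e-05), and without *Adam17*-/- replicate 1, 2, or 3 it was 0.42, 0.43, and 0.45 (adjusted p = 0.120, 0.105, and 0.0931). *Fbxl5*, the iron-sensing adaptor that marks IRP2 for degradation, was at 153.0 and 177.3 CPM in the WT libraries and at 249.6, 235.7, and 240.6 CPM in the *Adam17*-/- libraries. It rose by 0.55 on the log2 scale (standard error 0.0895, adjusted p = 0.002315), and all *Adam17*-/- values lay above the WT values.

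**Figure D4:**
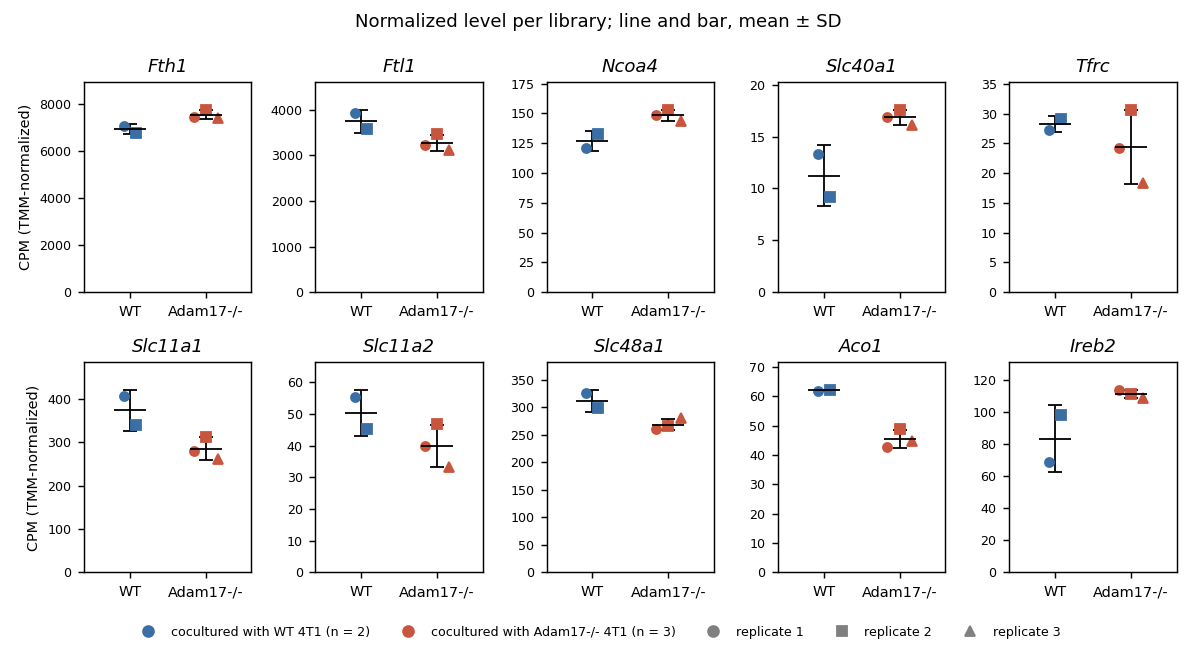
TMM-normalized CPM of each of the 10 genes per library (points) with the group mean and SD (line and bar), each axis starting at 0. *Aco1* and *Slc11a1* are lower and *Slc40a1* and *Ireb2* higher in the *Adam17*-/- cocultures, whereas *Tfrc* and *Slc11a2* overlap between the groups.

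Around the members, the other genes of 8 iron and heme lists were counted, 83 genes of which 72 were tested. Of these, 8 rose (11.1%, against 14.9% of all tested genes) and 19 fell (26.4%, against 16.8%), 27 in all (37.5%, against 31.7%), and 6 of them changed by at least 1 on the log2 scale (4.22% of all tested genes did so). Their median log2 fold change was -0.03. The count of genes that fell was 10, 10, and 12 without *Adam17*-/- replicate 1, 2, and 3, and the count that rose was 13 without WT replicate 2. The balance turned with the scaling: 14 rose and 12 fell with library size alone, and 14 rose and 10 fell with limma on either FPKM scale. The counts per list below include the members.

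Heme uptake, transport, and breakdown held the most genes that fell among the lists: 7 of 14 tested fell (16.8% of all tested genes did so), 1 rose (14.9% did so), and the median log2 fold change was -0.41. *Cd163*, the macrophage receptor for hemoglobin bound to haptoglobin, was at 24.5 and 22.2 CPM in the WT libraries and at 7.61, 6.84, and 9.85 CPM in the *Adam17*-/- libraries (log2 fold change -1.52, standard error 0.150, edgeR adjusted p = 0.000372). *Lrp1*, which takes up heme bound to hemopexin among many other ligands, fell from 6449 and 5514 CPM to between 3864 and 4392 CPM (-0.54, adjusted p = 0.005382). *Hmox1*, the inducible heme oxygenase that opens the heme ring, was at 542.2 and 501.0 CPM in the WT libraries and at 378.5, 367.6, and 412.1 CPM in the *Adam17*-/- libraries (-0.43, standard error 0.0859, adjusted p = 0.005576). *Hmox2*, the constitutive heme oxygenase, fell by 0.57 on the log2 scale (adjusted p = 0.001342), although its summed counts were not whole in any of the 5 libraries, so that reads were divided with another gene. The biliverdin reductases *Blvra* (-0.48, adjusted p = 0.003841) and *Blvrb* (-0.49, adjusted p = 0.008063) and the heme and folate transporter *Slc46a1* (-0.61, adjusted p = 0.0363) also fell. *Hpx*, which encodes hemopexin, rose at a low level, from 10 and 13 counts to 20, 20, and 35 counts (adjusted p = 0.0353). By DESeq2, *Hpx* (adjusted p = 0.111) and *Slc46a1* (adjusted p = 0.0665) did not pass. *Hp*, haptoglobin, was at 82.5 and 63.0 CPM against 82.6, 74.1, and 85.1 CPM and did not pass (adjusted p = 0.370).

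In the list of iron uptake and reductases, 4 of 15 genes tested rose (14.9% of all tested genes did so) and 4 fell (16.8% did so). The 4 that rose did so past a log2 fold change of 1. *Ltf*, lactoferrin, an iron-binding protein of neutrophil granules, rose from 20.8 and 18.2 CPM to 83.4, 107.4, and 75.3 CPM (log2 fold change 2.18, standard error 0.158, edgeR adjusted p = 0.0001447). *Lcn2*, lipocalin 2, which binds the iron carriers of bacteria and is also a neutrophil granule protein, rose from 56.0 and 41.5 CPM to 119.5, 115.1, and 110.6 CPM (1.24, adjusted p = 0.0003839). *Ltf* is itself 1 of the 10 neutrophil and precursor markers given above, *Lcn2* rose beside them, and the part of those markers in their difference was not tested. *Steap4*, a metalloreductase, rose from 23.1 and 16.7 CPM to 50.7, 46.4, and 45.8 CPM (1.26, adjusted p = 0.0004849). *Tfr2*, the second transferrin receptor, had 3 and 5 counts in WT, against 15, 15, and 23 counts in the *Adam17*-/- libraries (adjusted p = 0.008122), near the floor of 3 counts in WT. The genes that fell were *Slc11a1*, the metal transporters *Slc39a14* (111.0 and 109.4 CPM against 55.0, 53.6, and 56.7 CPM, log2 fold change -1.0, adjusted p = 0.000174) and *Slc39a8* (-0.62, adjusted p = 0.006599), and the endosomal ferrireductase *Steap3* (16.7 and 13.4 CPM against 8.65, 9.01, and 11.6 CPM, -0.62, adjusted p = 0.0171).

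In each of the remaining lists, at most 4 genes passed, and their counts stand against 14.9% of all tested genes that rose and 16.8% that fell. Of the ferritin list, 0 of 7 genes tested rose by edgeR (0 by DESeq2, and 1, *Ncoa4*, at an unadjusted p under 0.05) and 2 fell, among them the iron chaperone *Pcbp1*, which delivers iron to ferritin (192.7 and 177.0 CPM against 117.1, 126.6, and 126.0 CPM, log2 fold change -0.58, adjusted p = 0.001268). *Pcbp2*, its close relative, was at 290.8 and 309.6 CPM against 302.4, 294.4, and 299.1 CPM (log2 fold change -0.01, edgeR adjusted p = 0.949). The summed counts of *Pcbp2* were not whole in any of the 5 libraries, so that reads were divided with another gene. Of the export and hepcidin list, *Slc40a1* alone of 4 tested passed. *Cp*, the ferroxidase ceruloplasmin, was at 5.44 and 7.63 CPM against 7.28, 6.71, and 6.99 CPM (adjusted p = 0.684), and *Hamp*, hepcidin, had at most 1 count in a library, under the floor of 3 counts. In the list of iron regulatory protein control, 2 of 5 genes rose (*Ireb2* and *Fbxl5*) and 1 fell (*Aco1*). Of heme synthesis, 1 of 10 rose and 2 fell, and the one that rose was *Ppox*, the oxidase that makes protoporphyrin (0.56, adjusted p = 0.009271). Of mitochondrial iron import and iron-sulfur assembly, 1 of 23 rose and 3 fell, with a median log2 fold change of -0.01. *Epas1*, which encodes HIF-2 alpha, fell (log2 fold change -0.39, edgeR adjusted p = 0.0226). Its 5′ UTR held a match to the iron-responsive element only when the search allowed for 1 unpaired base.

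**Figure D5:**
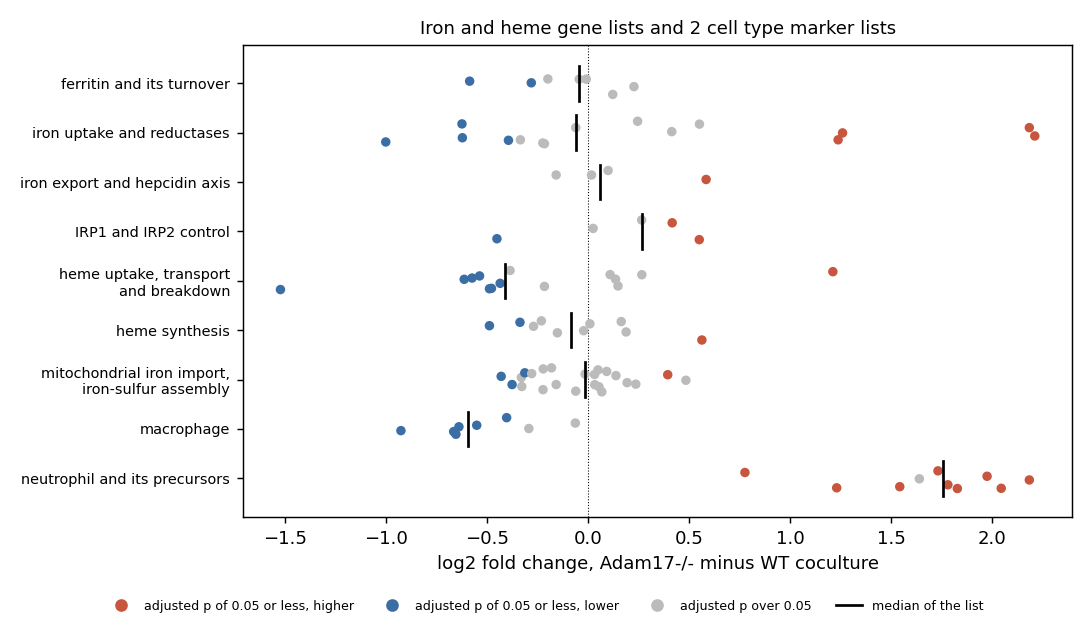
Log2 fold change (*Adam17*-/- minus WT coculture) of the tested genes of 7 iron and heme lists and of the macrophage and neutrophil marker lists, 1 point per gene, colored by the test, with a black line at each median. The medians of the iron and heme lists lie between -0.41 and 0.27, that of the macrophage markers at -0.59, and that of the neutrophil markers at 1.76.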

How the data were processed

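The authors sequenced poly(A) RNA on a BGISEQ-500, aligned it to GRCm38 (mm10) with HISAT, and quantified transcripts with Bowtie2 and, per the labels, RSEM (versions not given in the sources used here). For each transcript they deposited an FPKM value, scaled by transcript length and library size, and an expected count, which is unscaled. Transcripts under an FPKM of 0.01 were not listed and were taken as 0.

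Both values were summed per Entrez gene, and 17015 of 17058 identifiers had a symbol in RefSeq (GRCm38.p6). The rounded expected counts entered edgeR 4.0.16 (R 4.3.3; TMM, filterByExpr, glmQLFit, and glmQLFTest, Benjamini-Hochberg over 12576 genes), without covariates. Totals of 14658694 to 20788373 counts put 3 counts at 0.157 to 0.197 CPM. Ratios and transcript shares were compared by two-sided exact permutation tests (scipy 1.17.1). A prior count of 2 was used for log2 CPM. Groups came from the sample labels.

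Alternatives were DESeq2 1.42.0 or its size factors, upper quartile factors, library size only, limma 3.58.1 on log2(FPKM + 0.1) and log2(FPKM + 1), testing unfiltered genes or those with 10 counts or more in all samples, stricter thresholds, the replicate block, and each replicate left out. Leaving out marker genes or *Lcn2*, *Ltf*, and *Hp*, taking transcript shares and overlap between groups from FPKM, and DESeq2 for single list genes, were added after seeing the data. Members and lists were chosen with earlier results of these data known. Besides members, genes were named where they passed at 0.05 with a change of at least 0.5 on the log2 scale (at most 5 per list and direction), with *Hmox1*, *Cd163*, *Fbxl5*, *Steap3*, *Cp*, *Hp*, and *Lcn2* always named. *Blvra*, *Blvrb*, *Pcbp2*, *Hamp*, *Epas1*, *Tf*, *Slc25a37*, *Slc25a28*, and the markers *Hba-a1*, *Ermap*, *Hbb-bs*, *Hbb-bt*, and *Cdh1* fall outside this rule and were chosen after their values were seen. A result on 1 other gene is not reported here. The fits were tested on simulated data. Other tools were Python 3.11.15, pandas 2.3.3, numpy 2.4.6, and matplotlib 3.10.9.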

Additional observations from a re-analysis of the deposited data

How the results depend on the processing

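In no alternative did a member change direction. Of the members, 2 rose and 2 fell in the reported fit. With library size only, 4 rose and 1 fell. With limma on log2(FPKM + 0.1) and on log2(FPKM + 1), 1 fell in both. At an adjusted p of 0.01 or less, 0 rose and 1 fell, and with a change of at least 1 on the log2 scale, 0 rose and 0 fell (edgeR; 3 rose and 4 fell at an unadjusted p under 0.05 with no limit on size, and DESeq2 called 2 and 2 at 0.05). With a replicate left out, 0 to 3 rose and 1 to 5 fell; 0 rose without *Adam17*-/- replicate 1 or 2, where 2 passed at an unadjusted p under 0.05, and the highest counts, 3 and 5, came without WT replicate 2. In these fits a lone WT library is assumed to vary like the other group. Of the other genes of the iron lists, 8 rose and 19 fell in the reported fit. With upper quartile factors 13 rose, with library size only 14 rose and 12 fell, and with limma on either FPKM scale 14 rose and 10 fell. With a replicate left out, 7 to 13 rose and 10 to 23 fell. Without the genes that are also in a marker list, 7 rose and 19 fell, and without *Lcn2*, *Ltf*, and *Hp*, 6 rose and 19 fell, alternatives chosen after seeing the data.

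The replicate numbers are shared by the groups, but the libraries of the same number did not deviate together (correlations -0.124 and -0.05), so they give no pairing. The replicate block adds a term for each replicate number, and replicate 3 has no WT library. This term takes up *Adam17*-/- replicate 3, so the block fit in effect compares replicates 1 and 2 only. With the replicate block, 1 member rose and 1 fell in edgeR. *Ireb2* (log2 fold change 0.46, adjusted p = 0.0515) and *Slc11a1* (-0.33, adjusted p = 0.135) no longer passed. Over all genes, 1216 rose and 1126 fell with the block, against 1869 and 2114 without it. Without WT replicate 2 the counts over all genes were 2460 and 2940. Library size only gave 3019 and 1077, and limma 2927 and 1016 or 2867 and 1011. Without *Adam17*-/- replicate 1, 2, or 3 the counts were 1089 and 926, 1240 and 1168, and 1208 and 1237.

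Among the limits are the 2 WT libraries, which differ from each other, a single knock-out line, and the dependence of the calls on scaling. *Slc40a1* rests on 169 to 309 counts per library.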

Other observations

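*Tf*, which encodes transferrin, the serum carrier of iron made mainly by the liver, ranked 21st of 17058 genes by FPKM. It was at 3578 and 3406 CPM in the WT libraries and at 2748, 2976, and 3250 CPM in the *Adam17*-/- libraries, below both WT values on this scale but without passing the test (log2 fold change -0.22, standard error 0.0990, edgeR adjusted p = 0.113). Its FPKM values overlapped between the groups (1451 and 1445 against 1272, 1363, and 1486). The mean of 1448 ± 3.903 FPKM (SD, n = 2) in the WT libraries stands beside 5.47 ± 0.424 for its receptor *Tfrc*. *Slc25a37*, mitoferrin 1, which brings iron into the mitochondrion and is known best from red cell precursors, rose from 380.4 and 345.2 CPM to 493.2, 501.7, and 436.3 CPM (log2 fold change 0.40, adjusted p = 0.0121), whereas its relative *Slc25a28*, mitoferrin 2, was at 50.4 and 41.4 CPM against 48.8, 45.1, and 47.1 CPM (adjusted p = 0.825). The difference between the mitoferrins was not tested.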
